A study of Mus musculus with 4 samples.

Results

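The SHB and SHC type SH2 adaptors are cytoplasmic proteins without enzymatic activity that carry a Src homology 2 (SH2) domain, a fold that binds phosphorylated tyrosine. The 6 genes described here, She, Shb, Shd and Shf of the SHB type and Shc1 and Shc2 of the SHC type, are among 23366 gene symbols counted in mouse R1 embryonic stem cells. The members were chosen by gene name with the knockdown comparison already known, and She was among the genes it called, so that differences between the groups in these 6 genes, and the calls of the fit over all genes, are given as a description and not as evidence. All 6 had reads in the files, and 5 passed the filter on low counts, Shd being left out.

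Of the R1 cells (strain 129X1 x 129S1), 2 cultures were transfected with a short hairpin RNA against Cyrano and 2 with a non-targeting hairpin in the same vector, pSicoR, which carries mCherry and puromycin resistance. The design text calls the cultures of a group biological replicates, and the number of hairpins is not given. All cultures were grown on gelatin with serum, serum replacement and the cytokine LIF, and transfected cells were then selected with puromycin or sorted by flow cytometry, without a statement of which was used for which library. Cyrano, listed in the files as 1700020I14Rik, is a long noncoding RNA that pairs with the microRNA miR-7. Polyadenylated RNA was counted in 4 libraries, with 22321102 and 20761783 reads over genes in knockdown libraries 1 and 2 and 16854403 and 19138196 in control libraries 1 and 2. Levels are given as CPM, read counts scaled to library size with a correction for composition (TMM).

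When a growth factor receptor of the tyrosine kinase class is activated, it phosphorylates itself and its substrates, and adaptors dock on the new phosphotyrosines. SHC proteins bind with an SH2 domain and a second phosphotyrosine-binding domain, are phosphorylated in turn, and then recruit GRB2 and SOS, which load RAS with GTP and start the ERK cascade. SHB type proteins have an SH2 domain at the carboxyl end and proline-rich or tyrosine motifs before it, and link receptors to kinases such as ABL and FAK. In embryonic stem cells ERK signalling downstream of FGF receptors favours exit from the naive state, and SHB has been studied there for its part in differentiation.

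The sequences shown first are those of miR-7, the microRNA that binds Cyrano, and the stretches of 2 adaptor transcripts that match its seed, because the study's title speaks of a long noncoding RNA and microRNA activity. Mature mouse miR-7a and miR-7b, from RefSeq on GRCm38.p6, are written 5′ to 3′ with the seed, bases 2 to 8, in capitals. The gene copies of miR-7a lie at chr7:78888295-78888317 on the plus strand and chr13:58392841-58392863 on the minus strand, and miR-7b lies at chr17:56243017-56243040 on the plus strand.
miR-7a-5p: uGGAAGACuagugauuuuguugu
miR-7b-5p: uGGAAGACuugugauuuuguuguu

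The longest annotated 3′ UTR of each member was searched, on the transcript strand only, for GTCTTCC, the complement of bases 2 to 8, and for TCTTCCA, the complement of bases 2 to 7 followed by A. These motifs share the letters TCTTCC. A match was present in 2 of the 6 members, each at 1 place and of a different type. She, on chromosome 3, held GTCTTCC at position 3790 of a 3′ UTR of 4120 bases, counted from the first base after the stop codon. Shc2, on chromosome 10, held TCTTCCA at position 994 of 1453. The 30 bases around each match are shown with the motif in capitals.
She: ggtgttttgactcctaGTCTTCCcctggac
Shc2: caccttgatgctctctTCTTCCAaatacag

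Shb, Shd, Shf and Shc1 held neither motif in the UTRs searched, which were 662, 343, 461 and 1582 bases long. Over 19683 genes with a 3′ UTR of at least 50 bases, 12.5% held GTCTTCC, 17.8% held TCTTCCA and 24.2% held either. The 3′ UTR of She was longer than that of 93.3% of these genes, and a longer UTR holds any given 7 letters more often. Such a match is a description of the letters and does not show that miR-7 acts there.

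She, whose product shares with SHB an SH2 domain at the carboxyl end, was the member with the largest difference between the groups. It had 242 and 249 reads in the knockdown libraries, against 571 and 648 in the control libraries. Its level was 10.8 and 11.6 CPM in the knockdown libraries and 34.7 and 34.3 CPM in the controls. Both knockdown libraries were low, both controls were high, and the groups did not overlap. The means were 11.2 ± 0.514 CPM in knockdown libraries and 34.5 ± 0.296 CPM in the controls (SD, n = 2 each), a 3.08-fold lower level with a log2 fold change of -1.62 ± 0.20 (SE). In libraries of mixed cells, fewer cells of a type and less RNA per cell cannot be told apart.

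Shb, whose product couples PDGF, FGF and VEGF receptors to FAK and other kinases, overlapped between the groups. It had 14.7 and 17.7 CPM after knockdown, against 14.6 and 14.8 CPM in the controls. The means were 16.2 ± 2.06 CPM and 14.7 ± 0.162 CPM (SD, n = 2 each), and the log2 fold change was 0.14 ± 0.22 (SE), which is smaller than its error. It ranged from 0.01 without knockdown library 2 to 0.26 without knockdown library 1. The knockdown libraries differed from each other by 18% of their mean, against 1.55% between the controls.

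Shf, whose product binds the PDGF alpha receptor in human cells, overlapped between the groups. It had 19.9 and 16.3 CPM in the knockdown libraries, against 18.1 and 22.1 CPM in the controls, and means of 18.1 ± 2.57 and 20.1 ± 2.88 CPM (SD, n = 2 each). The log2 fold change was -0.15 ± 0.22 (SE). It ranged from -0.31 without knockdown library 1 to 0.00 without control library 2.

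Shd, a substrate of the ABL kinase that is best known from brain, was at the limit of counting. It had 0 and 4 reads in the knockdown libraries and 2 and 2 reads in the controls. A count of 0 allows up to 3 reads, which in these libraries is 0.134 to 0.183 CPM, so that no fold change was formed.

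Shc1 encodes the widely expressed SHC protein that carries signals from receptors to GRB2. It was the most abundant member, with 3662 and 3730 reads in the knockdown libraries and 2738 and 2843 reads in the controls. These reads gave 164 and 173 CPM after knockdown, against 167 and 151 CPM in the controls, so that the groups overlapped. The means were 169 ± 6.53 and 159 ± 11.3 CPM (SD, n = 2 each) and the log2 fold change was 0.09 ± 0.14 (SE). Leaving out 1 library moved it between 0.02 and 0.16. With the deepest counts of the family its error was also the smallest.

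Shc2, an SHC gene best known from neurons, was low and lay apart between the groups by a small margin. It had 6.09 and 4.37 CPM in the knockdown libraries, against 6.51 and 7.31 CPM in the controls. The higher knockdown library lay just under the lower control. The means were 5.23 ± 1.22 and 6.91 ± 0.565 CPM (SD, n = 2 each), and the log2 fold change was -0.40 ± 0.31 (SE). It ranged from -0.67 without knockdown library 1 to -0.18 without knockdown library 2. The remaining SHC genes, which are no members here, were barely counted. Shc3, a neuronal SHC gene, had 2 and 0 reads after knockdown and 3 and 5 reads in the controls. Shc4 had 0 and 8 reads after knockdown and 5 and 5 reads in the controls.

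**Figure D1:**
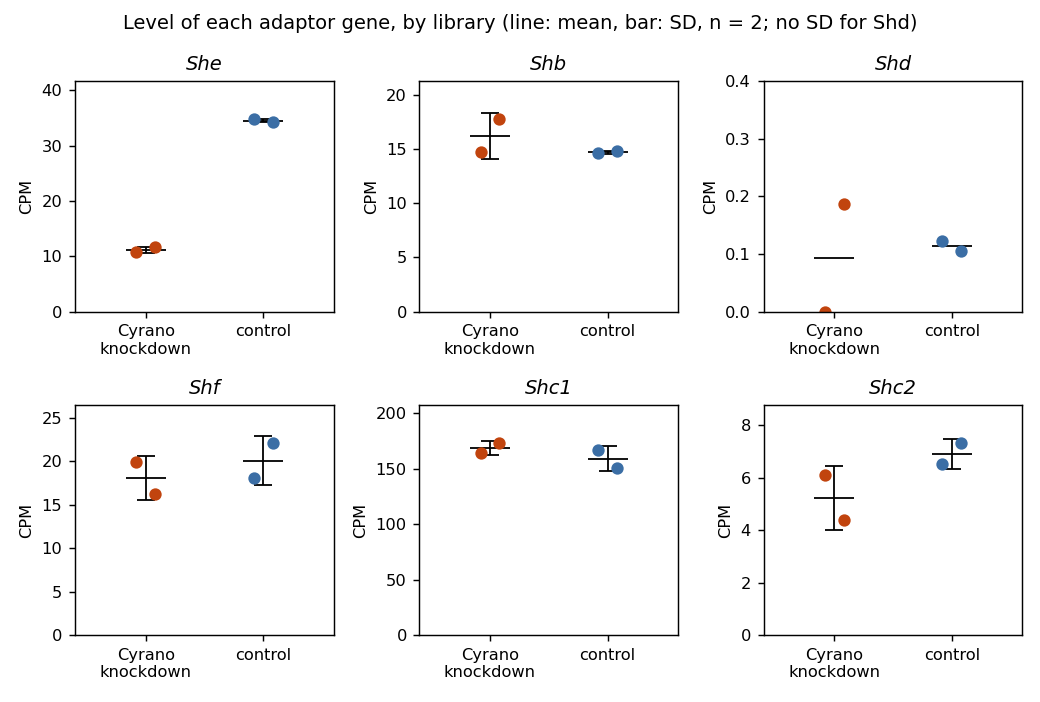
CPM of each of the 6 genes in the 2 knockdown libraries (left, orange) and the 2 control libraries (right, blue), each panel on its own linear axis from 0. The horizontal line is the mean and the bar the SD, which is left out for Shd because its counts were 0 to 4. She is at 10.8 and 11.6 CPM after knockdown, against 34.7 and 34.3 CPM in the controls, while Shb, Shf and Shc1 overlap between the groups.

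In the fit over all 13199 tested genes, edgeR's quasi-likelihood test called 1 of the 5 tested members at an adjusted p under 0.05, She, which was lower. That rule called 0.0833% of all tested genes, and 0.0455% in the lower direction. An unadjusted p under 0.05 was reached by 1 of the 5, again She, and by 11.6% of all tested genes. The groups did not overlap in 2 of the 5, She and Shc2, against 43.5% of all tested genes, 21.3% with knockdown lower and 22.3% with knockdown higher. The members' median log2 fold change was -0.15, beside a median of -0.0016 over all tested genes. Since the comparison itself led to the choice of the family, these counts are a description and nothing is read from them. By log2 fold change She was number 71 from the lowest of all tested genes, which is likewise a description.

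She was no longer called by edgeR when either control library was left out, at a log2 fold change of -1.62 without control 1 and -1.63 without control 2. The groups also differed in how reads aligned and were assigned to genes. Reads without a unique alignment were 28.7% and 26.1% of all tallied reads in the knockdown libraries, against 32.8% and 30.2% in the controls. Reads tallied as ambiguous between genes, and so counted for none, were 0.568% and 0.60% against 0.459% and 0.513%. The part of these differences in the level of She was not tested. Fold changes in these libraries also followed transcript length. She has the longest annotated transcript of the family, 5733 bases. With tested genes in 5 groups of transcript length, the longest group, which holds She, had a median log2 fold change of -0.14. The middle group, with Shc1 and Shc2, had one of 0.00 and the shortest, with Shf, one of 0.12. With an offset for length and GC content the value for She was -1.51 ± 0.17 (SE).

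**Figure D2:**
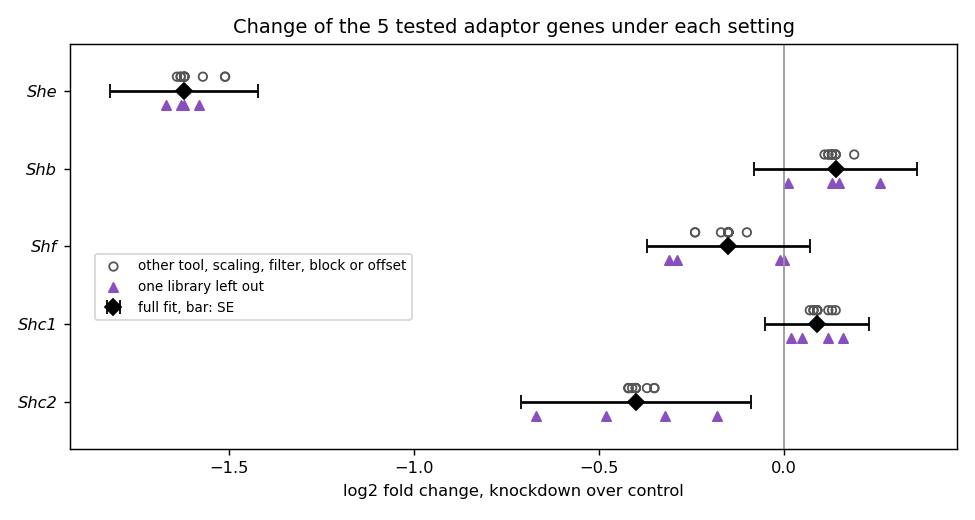
Log2 fold change, knockdown over control, of the 5 tested members (rows). Diamonds with SE bars are the full fit, open circles above them the fits with another tool, scaling, filter, replicate block or length offset, and triangles below them the fits with 1 library left out. The values for She lie between -1.67 and -1.51, and the triangles of Shf reach 0.00.

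The family differed widely in level once counts were divided by length. RPKM here is CPM per kilobase of the union of annotated exons. After knockdown the order was Shc1 at 29.9 ± 1.16 RPKM, Shf at 7.86 ± 1.11, Shb at 5.06 ± 0.644, She at 1.55 ± 0.0712 and Shc2 at 0.964 ± 0.225 (SD, n = 2). In the controls it was Shc1 at 28.1 ± 2.0 RPKM, Shf at 8.72 ± 1.25, She at 4.78 ± 0.041, Shb at 4.6 ± 0.0505 and Shc2 at 1.27 ± 0.104 (SD, n = 2). Shd came last in both groups. The libraries of neighbours in these orders did not overlap, but She and Shb were close in the controls. With the longest transcript as length She came after Shb in both groups, and the controls then had 6.02 RPKM of She and 6.56 RPKM of Shb. Among all tested genes, Shc1 lay above 86.9% in mean RPKM over the 4 libraries, Shf above 63.7%, Shb above 51.9%, She above 43.2% and Shc2 above 25.3%.

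Within the family, She made up 3.34% and 3.50% of the summed RPKM in the knockdown libraries, against 10.0% and 10.1% in the controls. Shc1 made up 64.7% and 67.1% after knockdown and 61.5% and 56.7% in the controls. The summed RPKM of the 6 genes was 44.9 and 45.8 after knockdown and 48.0 and 47.1 in the controls. Both knockdown sums lay below both control sums, but the sums include She, whose lower level was known when the family was chosen. They are therefore no separate result. Among the SHB type genes alone, She made up 10.2% and 11.2% after knockdown and 27.9% and 25.0% in the controls. The other SHB type genes together had 34.7 and 34.1 CPM after knockdown, against 32.8 and 37.1 CPM in the controls, an overlap.

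Ratios of counts within a library do not depend on how libraries are scaled. She had 0.736 and 0.655 reads for each read of Shb in the knockdown libraries, and 2.38 and 2.31 in the controls. For each read of Shc1 it had 0.0661 and 0.0668 after knockdown, and 0.209 and 0.228 in the controls. For each read of Shf it had 0.544 and 0.709 after knockdown, and 1.92 and 1.55 in the controls. Against Shc2 the ratio was 1.78 and 2.65 after knockdown, and 5.34 and 4.7 in the controls. All these ratios contain the counts of She, whose lower level was known when the family was chosen. They are therefore no separate result.

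**Figure D3:**
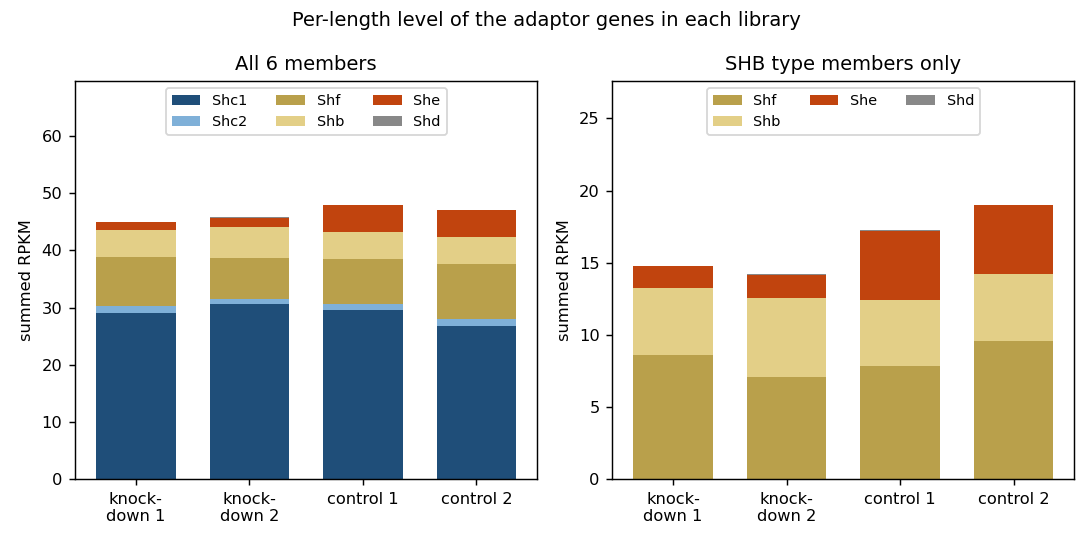
Summed RPKM of the 6 genes (left) and of the SHB type genes alone (right), stacked by gene, in knockdown libraries 1 and 2 and control libraries 1 and 2. The segment of She is 1.5 and 1.6 RPKM after knockdown and 4.81 and 4.75 RPKM in the controls, while the segment of Shc1 stays between 26.7 and 30.7 RPKM.

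Cyrano, the RNA that the hairpin targets, had 3.99 and 3.16 CPM in the knockdown libraries and 24.8 and 15.1 CPM in the controls. Its control libraries differed 1.63-fold from each other, whereas those of She differed 1.01-fold. The genes whose profile over the 4 libraries was most like that of She were Kcnh3, a voltage-gated potassium channel gene, Lgals3, which encodes galectin-3, Tbc1d2, a Rab GTPase-activating protein gene, Klhdc7a and Tctex1d2. Likeness was the distance between profiles of log2(CPM + 1), each centred on its own mean, among tested genes of at least 5 CPM on average, and the distances ran from 0.236 to 0.434. Kcnh3 had 1.61 and 1.90 CPM after knockdown, against 8.52 and 8.31 CPM in the controls. Lgals3 had 15.5 and 15.5 CPM after knockdown, against 43.2 and 57.6 CPM in the controls, and Tbc1d2 had 8.6 and 6.69 CPM after knockdown, against 22.3 and 20.2 CPM in the controls. These 3 were themselves among the called genes, which are 0.0833% of all tested genes. They were picked for likeness to She, itself a called gene, so that nothing is read from this. Klhdc7a had 3.14 and 2.09 CPM after knockdown, against 7.97 and 8.16 CPM in the controls. With a pseudocount of 0.1, 4 of the 5 were again among the nearest, Kcnh3 being the exception. None of the 5 held GTCTTCC or TCTTCCA in its longest 3′ UTR, beside 24.2% of all searched genes that held either.

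Of the 11 genes called over the whole table, 10 had a 3′ UTR to search. She was the 1 of these 10 that held GTCTTCC, beside 12.5% of all searched genes. None of the 10 held TCTTCCA, beside 17.8% of all searched genes. Among the 1767 tested genes with GTCTTCC the median log2 fold change was -0.05, against 0.00 in the 10822 searched without it. These genes were not matched for length, and the medians by transcript length given above spanned a wider range, from -0.14 to 0.12. She was number 7 from the lowest of the 1767. It was chosen with its low value known, so that nothing is read from this rank. Among the 2406 tested genes with TCTTCCA, where the median was -0.03, Shc2 was number 365 from the lowest.

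**Figure D4:**
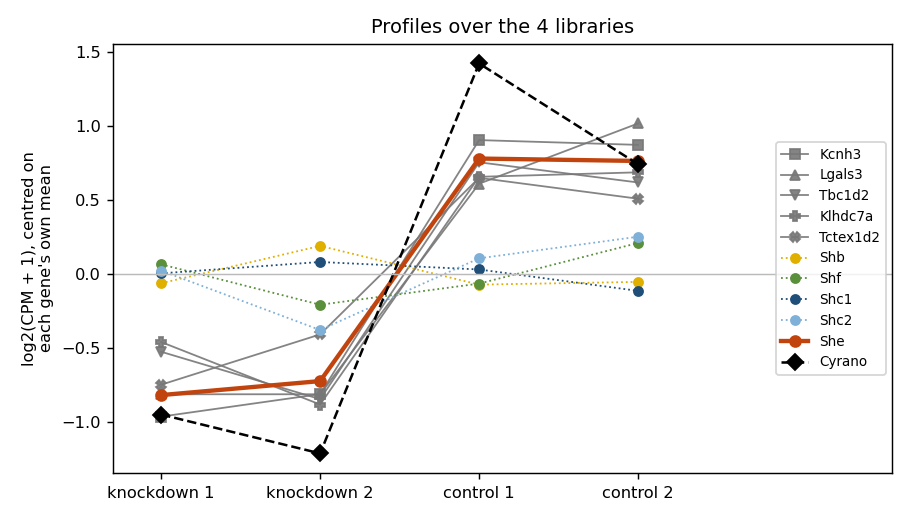
Log2(CPM + 1), centred on each gene's own mean, in knockdown libraries 1 and 2 and control libraries 1 and 2. She (thick orange) runs with the 5 most similar genes (grey) and shares its low and high groups with Cyrano (dashed black), whose controls are 24.8 and 15.1 CPM. Shb, Shf, Shc1 and Shc2 (dotted) vary less than She.

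She and Shc1 lie on the same chromosome, chromosome 3, 401 kb apart on GRCm38, with 7 other genes of the files between them. The nearest genes on either side were read to see whether the neighbourhood of a member moved with it. Il6ra, the interleukin-6 receptor alpha gene on the opposite strand 5224 bases from She, had 5.29 and 3.44 CPM after knockdown, against 9.61 and 6.14 CPM in the controls. It was not called, at a log2 fold change of -0.85 ± 0.35 (SE) and an edgeR adjusted p of 0.366. Ube2q1, a ubiquitin-conjugating enzyme gene on the other side of She, had 120 and 118 CPM after knockdown, against 108 and 117 CPM in the controls.

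Cks1b, a cyclin-dependent kinase subunit gene that lies 59 bases from Shc1 on the opposite strand, had 138 and 151 CPM after knockdown, against 120 and 111 CPM in the controls. Its log2 fold change of 0.33 ± 0.14 (SE) had an edgeR adjusted p of 0.393. Pygo2, a Wnt pathway cofactor gene 186 bases beyond the other end of Shc1, had 63.8 and 61.9 CPM after knockdown, against 69.2 and 71.3 CPM in the controls (edgeR adjusted p = 0.719). Around Shb, Shf, Shd and Shc2 none of the measured neighbours was called, and 4 of those 8 were below the filter. No member overlapped another gene of the files in this annotation.

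Base composition at the start sites varied among the members. Over the window from 250 bases before to 50 after the first annotated start in RefSeq, GC content was 75.7% for She, 75% for Shb, 68.7% for Shf, 65.7% for Shc2, 65% for Shd and 53.7% for Shc1. The window of She held 39 CG dinucleotides, more than 95.6% of all such windows. That of Shc1 held 13, more than 62.1% of them. By GC content the window of She exceeded 96.9% of all such windows, that of Shb 96.1%, that of Shf 88.9%, that of Shc2 83.8%, that of Shd 81.7% and that of Shc1 53.5%. No relation between composition and the difference between the groups was tested.

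The signalling partners of these adaptors were read from lists drawn up by function. Of 33 other SH2 adaptors, 32 were matched in the files and 21 were tested, with 13 log2 fold changes above 0 and 8 below and a median of 0.05. None was called by edgeR, DESeq2 or limma-voom, and by edgeR 0 of the 21 had an unadjusted p under 0.05. In 5 of them, 23.8%, the groups did not overlap, against 43.5% of all tested genes. Grb2, which encodes the adaptor that SHC proteins recruit, had 115 and 111 CPM after knockdown, against 107 and 104 CPM in the controls (log2 fold change 0.10 ± 0.14, SE). It is named here after its values were seen. Crkl, an adaptor of ABL and integrin signalling, had the lowest unadjusted p of the list, with 96.8 and 87.4 CPM after knockdown, against 118 and 105 CPM in the controls (log2 fold change -0.27 ± 0.15, SE). Stap2 (-1.02 ± 0.60), Grb10 (-0.44 ± 0.30) and Nck1 (0.27 ± 0.21) followed.

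Receptor tyrosine kinases, on which the adaptors dock, were measured for 54 of 54 genes, and 40 were tested. Of these 15 were above 0 and 25 below, with a median of -0.09. The full edgeR fit and limma-voom called none, and DESeq2 called 1, Pdgfra. With the replicate block edgeR called Pdgfra higher and Erbb3 and Epha4 lower. Epha4 was no longer called when the offset for length and GC content was added to the block. An unadjusted p under 0.05 in the full edgeR fit was reached by 6, 1 higher and 5 lower, and by 11.6% of all tested genes. Pdgfra, the PDGF alpha receptor gene and a partner of both SHB and SHF that is also a primitive endoderm marker, had 32 and 50.9 CPM in the knockdown libraries and 18.2 and 20.4 CPM in the controls (log2 fold change 1.10 ± 0.23, SE; edgeR adjusted p = 0.093). Erbb3 (-0.96 ± 0.30), Ephb2 (-0.63 ± 0.24) and Epha4 (-0.44 ± 0.17) had values below 0, each with both knockdown libraries below both controls. In 16 of the 40 genes, 40.0%, the groups did not overlap, a share near the 43.5% of all tested genes.

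Another list held 25 partners of these adaptors, among them kinases, lipid kinase subunits, exchange factors and a phosphatase. Of these 25 genes 24 were tested, 9 above 0 and 15 below, with a median of -0.10. None was called by the full edgeR fit, DESeq2 or limma-voom, whereas edgeR with the replicate block called Cbl. In 29.2% of the 24 the groups did not overlap, against 43.5% of all tested genes. Lyn, a Src family kinase gene, was the 1 with an unadjusted edgeR p under 0.05, beside 11.6% of all tested genes. It had 18.5 and 14.4 CPM after knockdown, against 9.98 and 12.7 CPM in the controls. Plcg1, the phospholipase C gamma gene, had a log2 fold change of -0.32 ± 0.16 (SE). Of 19 genes from SOS to ERK, 18 were matched and tested, 9 on each side of 0, with a median of -0.00033. Neither the full edgeR fit nor DESeq2 nor limma-voom called any of them, whereas edgeR with the replicate block called Rras2. In 38.9% of the 18 the groups did not overlap, against 43.5% of all tested genes. By the full edgeR fit 3 had an unadjusted p under 0.05, beside 11.6% of all tested genes. The 3 were the RAS family genes Rras2 (0.60 ± 0.17) and Mras (-0.36 ± 0.15), and Nf1 (-0.51 ± 0.20), which encodes a RAS GTPase-activating protein.

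**Figure D5:**
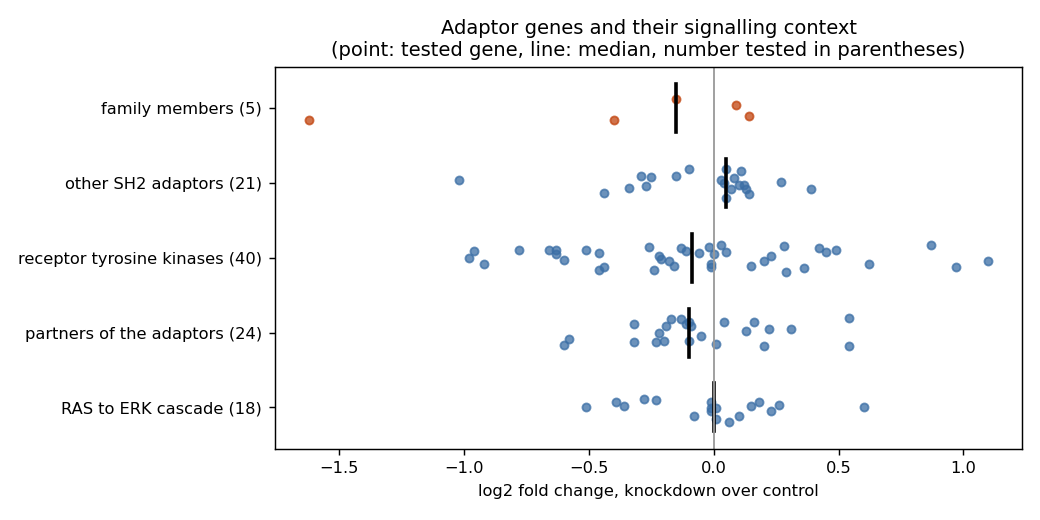
Log2 fold change, knockdown over control, of each tested gene (points, spread vertically for sight) in the family and in 4 lists of its signalling context, with the median as a line. The family's median is -0.15, and She at -1.62 lies lower than any point of the other lists, the lowest of which is Stap2 at -1.02 among the SH2 adaptors.

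Markers showed embryonic stem cells in every library. All 10 stem cell markers were tested, 5 above 0 and 5 below, with a median log2 fold change of -0.04. Their summed level was 4950 and 4756 CPM after knockdown, against 5208 and 5345 CPM in the controls, so that both knockdown libraries lay below both controls. Nanog, a regulator of the naive state, had 129 and 133 CPM after knockdown, against 216 and 228 CPM in the controls (log2 fold change -0.76 ± 0.14, SE; edgeR adjusted p = 0.0696). Dppa5a, another stem cell marker, had 427 and 398 CPM after knockdown, against 352 and 274 CPM in the controls (log2 fold change 0.40 ± 0.16, SE). The most abundant of the 10 were Esrrb (-0.35 ± 0.15), Pou5f1 (-0.09 ± 0.14) and Zfp42 (-0.21 ± 0.15). In 8 of the 10 the groups did not overlap, 3 with knockdown higher and 5 with knockdown lower, against 43.5% of all tested genes. Of the 10, 4 had an unadjusted p under 0.05, 1 higher and 3 lower, against 11.6% of all tested genes. Calls and p by edgeR in this paragraph are those of the full fit. That fit called none of the 10, and DESeq2 called Nanog and Tfcp2l1. Endothelial cells, in which SHB is best studied, had 11 of 12 markers tested, with Emcn at 0 reads throughout. Their summed level was 234 and 186 CPM after knockdown, against 221 and 165 CPM in the controls, which overlap. Of these markers Pecam1 is also present in stem cells. Robo4 was the most abundant, with 110 and 75.8 CPM after knockdown, against 88.3 and 60.7 CPM in the controls. Pecam1 and Egfl7 came next. edgeR called none, and 0 had an unadjusted p under 0.05. Blood markers summed to 22.1 and 25.4 CPM after knockdown, against 20.9 and 19.3 CPM in the controls, with Ptprc, Hbb-bh1 and Hba-x at 0 reads. Of 5 tested, 1 had an unadjusted p under 0.05 and edgeR called none. Neural markers summed to 575 and 481 CPM after knockdown, against 478 and 541 CPM in the controls, most of it Stmn2 and Tubb3. Dcx was at 0 reads. Of 9 tested, 3 had an unadjusted p under 0.05, 1 higher (Nes) and 2 lower (Ncam1 and Pax6). None was called by edgeR, and 1, Ncam1, by DESeq2. Fibroblast and feeder markers summed to 602 and 588 CPM after knockdown, against 615 and 660 CPM in the controls, most of it Vim, with Col3a1, Postn, Lum and Dcn at 0 reads. Of 6 tested, 1 had an unadjusted p under 0.05 and edgeR called none. Beside these counts, 11.6% of all tested genes had an unadjusted p under 0.05. The groups did not overlap in 36.4% of the tested endothelial markers, 60% of the blood, 55.6% of the neural and 50% of the fibroblast markers. Over all tested genes that share was 43.5%.

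All 12 primitive endoderm markers were tested, 11 of them with a value above 0, and the median log2 fold change was 0.59. In 9 of them, 75%, the groups did not overlap, 8 with knockdown higher and 1 with knockdown lower, against 43.5% of all tested genes. An unadjusted p under 0.05 was reached by 7, 6 higher and 1 lower, and by 11.6% of all tested genes. Their summed level was 1323 and 1039 CPM after knockdown, against 1014 and 834 CPM in the controls, most of it Col4a1 and Lama1. Gata6, a regulator of that lineage, had 40.5 and 60.7 CPM after knockdown, against 24.2 and 34.2 CPM in the controls. The edgeR fit called none of the 12, edgeR without a filter called Gata4, Gata6 and Pdgfra, and DESeq2 called Gata4 and Pdgfra. The summed levels of the stem cell, primitive endoderm, blood and fibroblast lists did not overlap between the groups, and those of the endothelial and neural lists did. The part of these markers in the level of She was not tested.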

How the data were processed

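The authors deposited unnormalized read counts by gene symbol, 1 file for each library. TopHat, HTSeq, SAMtools, bedtools and build mm9 are listed in the submitters' processing notes. A version, an annotation or the strandedness of counting was not given in the sources used here, nor which of 2 RNA kits served each library. The libraries were poly(A)-selected and strand-specific, per the labels' protocols. The 5 closing tallies of each file name no gene and were left out. Among them are the 6.39% to 7.61% of reads that overlapped no counted feature.

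Counts were tested across all genes with edgeR 4.0.16 in R 4.3.3: filterByExpr (minimum count 10), TMM factors, robust glmQLFit and two-sided glmQLFTest on group alone, with a Benjamini-Hochberg adjusted p under 0.05 called. SE is the log2 fold change over the root of F. RPKM was computed from CPM and union exon length. Steps were tested on simulated data. Alternatives were DESeq2 1.42.0, limma-voom (limma 3.58.1), other scalings and filters, each library left out, the replicate block and a loess offset (span 0.5) on transcript length and GC content. With 2 libraries against 2 an exact permutation test cannot go below p = 0.333. Counts of the replicates differed beyond sampling noise (chi-square per degree of freedom 20.5 in the knockdown pair and 25.4 in the control pair).

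Lengths, neighbours and 3′ UTRs came from GENCODE M21 (GRCm38, not the files' build), with 23005 of 23366 symbols (98.5%) matched. RefSeq tables (GRCm38.p6) gave miR-7 and the promoters of all 6 members. Protein sequences were not used here.

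The members, the 11 lists and the tests were chosen with earlier results of these data known. Genes named were the members, Shc3, Shc4, Cyrano, nearest neighbours and the 5 genes most like She. In each list they came from genes called in a fit, those with the lowest unadjusted p and the most abundant markers. Not every such gene was named. Grb2 and the markers at 0 reads were named after their values were seen.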

Additional observations from a re-analysis of the deposited data

How the results depend on the processing

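The log2 fold change of She kept its direction in 15 of 15 alternatives, between -1.67 and -1.51, and was called in 13. Over left-out libraries it ran from -1.67 to -1.58, with 0 to 1 members called, and in the other alternatives She was the 1 member called. Shb, Shc1 and Shc2 kept their signs in 15 and Shf in 14, and none of these genes was called in any. The members' median of -0.15 ran from -0.31 to 0.00 over left-out libraries.

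Over all genes, 5 were called higher and 6 lower. RLE factors gave 2 and 4, as did the CPM filter. Upper-quartile factors gave 10 and 16, and library size alone 32 and 18. Without a filter the counts were 174 and 158. DESeq2 gave 71 and 62, limma-voom 1 and 2, and edgeR without robust estimation 1 and 3. The offset for length and GC content gave 5 and 8, and left-out libraries 0 to 60 and 0 to 131. Deviations of same-numbered libraries correlated at 0.244, and with 2 numbers per group the labels give only a shared number. With the replicate block 504 and 451 genes were called and She was at -1.62. The block together with the offset gave 307 and 315, with She at -1.51.

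Of the genes in the lists, none was called in the full fit. Library size alone gave 1 higher and 2 lower, no filter 4 and 4, DESeq2 2 and 3, upper-quartile factors 0 and 1, and the offset 0 and 1. The replicate block gave 11 and 7, and the block together with the offset 9 and 6. Among signalling genes, the block called Pdgfra and Rras2 higher and Cbl, Epha4 and Erbb3 lower. Of the other markers it called Dppa5a, Nes, Runx1 and Twist1 higher and Nanog, Ncam1 and Tfcp2l1 lower. Genes called only once the offset was added to the block were Col4a1 and Robo4, higher, and Tubb3, lower. Called with the block alone but no longer with the offset added were Amn, Dppa5a, Foxa2 and Twist1, higher, and Epha4 and Hnf4a, lower. Among primitive endoderm markers, the block called Gata4, Gata6, Pdgfra, Sox17, Foxa2 and Amn higher and Hnf4a lower, and without knockdown library 1 Gata4, Gata6 and Pdgfra were called higher. Nanog was the lower call with upper-quartile factors and with the offset. Left-out libraries gave 0 to 3 higher and 0 to 4 lower. The cause of these shifts was not tested. The planned protein motif search was not run. Depth limits Shd, Shc3 and Shc4, and 2 libraries a group limit every comparison.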
